A study of Mus musculus with 7 samples.

Results

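The beta cell disallowed genes described here are Ldha, Slc16a1, Hk1, Hk2, Acot7, Mgst1, Oat, Pdgfra, Smad3, and Igfbp4, and the data are the chromatin accessibility peaks at these 10 genes in sorted mouse islet cells. Every distinct peak interval that overlapped the gene body or the 20 kb on either side of it was counted, by the cell type label of its library. Of the 1190565 peaks in the 7 libraries, 447 met this rule, and the 10 genes were compared with all 21911 protein-coding genes measured in the same way. All libraries were assays for transposase-accessible chromatin with sequencing (ATAC-Seq), in which a transposase inserts adapters where DNA is open. Alpha, beta, and delta cells, the islet cells that make glucagon, insulin, and somatostatin, were represented by 2, 3, and 2 libraries. They came from healthy mice that carried mIns1-H2b-mCherry, which marks cells with an active insulin promoter, and Rosa-LSL-YFP, which is switched on by Sst-Cre in delta cells or Gcg-Cre in alpha cells. Mice were pooled by sex, and the samples held a median of 20000 sorted cells. The paper lists fewer cells for a delta sample than for the others. Single-end reads of 50 bp, from fragments of about 450 bp, were sequenced. Age and strain were not used here, nor was the Cre line behind each beta library.

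Disallowed genes are genes that are active in most tissues and kept very low in mature beta cells. Several of them act on glucose and its products. High-affinity hexokinases in beta cells would let glucose drive metabolism when blood sugar is low. Lactate dehydrogenase A and the monocarboxylate carrier of Slc16a1 would let lactate and pyruvate from the blood, for example during exercise, act as fuels for insulin release. The remaining genes have roles outside this route, in lipid, redox, and amino acid metabolism and in growth factor signaling. Accessibility is not transcription, and no RNA was measured in the lists used here.

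The promoters of Ldha, Slc16a1, Hk1, and Oat are printed because the comparisons of cell types turn on them. Each window runs from 250 bases before to 50 bases after a start annotated by RefSeq on GRCm38.p6. They are written from 5′ to 3′ on the strand of the gene, at chr7:46845554-46845853 (plus strand) for Ldha, chr3:104638414-104638713 (plus strand) for Slc16a1, chr10:62340372-62340671 (minus strand) for Hk1, and chr7:132576349-132576648 (minus strand) for Oat. Capitals mark matches, on either strand, to any of 7 motifs, which are the palindromic E-box CACGTG, its part ACGTG that also forms the core of the sites of hypoxia-inducible factors, the GC box GGGCGG, the letters CCAAT bound by nuclear factor Y, the AP-1 motif TGANTCA, the forkhead motif TGTTTAC, and the E-box CAGATG. Matches were counted on each strand, so each CACGTG also counts as an ACGTG on both strands.
Ldha promoter: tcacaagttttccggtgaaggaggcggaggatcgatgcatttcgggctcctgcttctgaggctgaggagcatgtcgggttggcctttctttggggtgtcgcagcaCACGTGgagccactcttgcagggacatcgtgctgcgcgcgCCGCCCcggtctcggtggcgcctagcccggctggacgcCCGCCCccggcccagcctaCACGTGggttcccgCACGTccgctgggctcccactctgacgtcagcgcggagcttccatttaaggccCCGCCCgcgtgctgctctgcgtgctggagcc
Slc16a1 promoter: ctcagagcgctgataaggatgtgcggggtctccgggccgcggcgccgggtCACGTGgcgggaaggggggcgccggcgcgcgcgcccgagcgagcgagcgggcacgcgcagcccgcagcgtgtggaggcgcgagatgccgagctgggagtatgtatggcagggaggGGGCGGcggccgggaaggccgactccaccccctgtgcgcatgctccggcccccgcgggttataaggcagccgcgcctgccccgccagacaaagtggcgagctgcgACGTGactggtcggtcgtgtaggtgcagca
Hk1 downstream promoter: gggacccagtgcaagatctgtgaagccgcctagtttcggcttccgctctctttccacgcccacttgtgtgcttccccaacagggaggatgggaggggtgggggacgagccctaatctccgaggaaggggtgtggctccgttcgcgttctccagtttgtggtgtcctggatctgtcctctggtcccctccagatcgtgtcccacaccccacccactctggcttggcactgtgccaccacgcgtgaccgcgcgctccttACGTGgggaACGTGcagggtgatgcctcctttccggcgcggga
Oat promoter: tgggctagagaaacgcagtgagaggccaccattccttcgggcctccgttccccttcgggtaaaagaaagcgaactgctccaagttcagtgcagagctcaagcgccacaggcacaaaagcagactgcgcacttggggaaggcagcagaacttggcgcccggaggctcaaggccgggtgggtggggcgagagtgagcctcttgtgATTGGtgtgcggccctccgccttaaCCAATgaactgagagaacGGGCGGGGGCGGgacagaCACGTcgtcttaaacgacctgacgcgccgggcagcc
All 10 genes had RefSeq promoters, 13 in all. ACGTG was found in 5 of the 13, those printed and that of Hk2, and in 19.6% of the 32851 mouse promoters searched. Counted this way, the Ldha window held 5 matches to ACGTG and Slc16a1 held 3, and the palindrome CACGTG occurred in these windows alone among the members and in 7.15% of all promoters. GGGCGG was present in 7 of the 13 against 35.7% of all. CCAAT was present in 2 of 13, those of Hk2 and Oat, against 37.4%, and CAGATG was present in 2 of 13 against 17.2%. TGANTCA was in none of the 13, and neither was TGTTTAC, against 7.81% and 3.65% of all. The 4 printed windows held between 61.7% and 73.7% G and C, where the median promoter held 52.7%. A match describes letters and not the binding of a factor.

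A pair of regions inside introns is printed as well, because the first was called in the libraries of 1 cell type alone and the second in those of 1 sequencing lane alone. Each window is 300 bases long, centered on its region, and written on the plus strand of GRCm38.p6 with capitals as above. The first, chr10:62344066-62344365, lies in an intron of Hk1 and was called in all 3 beta libraries and in no other. The second, chr11:99046987-99047286, lies in Igfbp4 and was called in both alpha libraries and in beta 1.
Hk1 intron, beta libraries only: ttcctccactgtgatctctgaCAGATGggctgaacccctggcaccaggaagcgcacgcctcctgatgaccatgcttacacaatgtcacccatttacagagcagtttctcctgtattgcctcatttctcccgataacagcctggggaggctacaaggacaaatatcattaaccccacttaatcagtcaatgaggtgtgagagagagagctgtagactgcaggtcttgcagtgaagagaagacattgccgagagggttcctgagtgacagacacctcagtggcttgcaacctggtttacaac
Igfbp4 intron, alpha libraries and beta 1: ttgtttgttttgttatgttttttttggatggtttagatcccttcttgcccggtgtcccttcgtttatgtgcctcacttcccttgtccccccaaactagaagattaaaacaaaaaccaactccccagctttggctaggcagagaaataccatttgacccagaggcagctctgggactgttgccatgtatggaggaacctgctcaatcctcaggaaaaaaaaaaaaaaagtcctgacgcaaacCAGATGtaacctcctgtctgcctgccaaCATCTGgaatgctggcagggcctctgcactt
The Hk1 window held 1 match to CAGATG and the Igfbp4 window held 2, and the same letters occurred in 25% of windows of this length centered on the 128919 regions called in at least 2 libraries that were searched.

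The 7 lists differed in length and in strength, and this bears on each result. They held between 75860 and 158066 peaks, except beta 1, which held 518503. A −log10 q of 2, a false discovery rate of 1 in 100 within the library, was reached by 5% of the peaks of beta 1 and by 29.8% to 54.9% of those of the other 6 lists. Between 25903 and 38058 peaks of a beta list were this strong, against 41683 to 52057 of an alpha or delta list, so all 3 beta libraries were below all 4 others. The lists are named with 2 sequencing lanes, lane 6 for both alpha libraries and beta 1, and lane 7 for beta 2, beta 3, and both delta libraries, so alpha against delta cannot be told apart from lane 6 against lane 7. In the deposit, each of the 3 beta lists is named after alpha or delta cells, and every beta value follows the label. The paper sorted beta cells from Gcg-Cre and Sst-Cre mice, the lines that also gave the alpha and delta cells. Whether the list names refer to these lines was not tested. Defining markers were checked for a promoter peak within 1 kb of the annotated 5′ end of the gene. Of 5 alpha cell markers, 5 had a promoter peak in both alpha libraries, 3 in at least 2 beta libraries, and 4 in both delta libraries, and Gcg was called in no beta library. Of 4 delta cell markers, 3, 0, and 4 had one in the same order, and Sst was called in both delta libraries and beta 1. The 7 beta cell markers did not separate as a list, with 4 called in each cell type and a median difference in rank of 0 between beta and the other cells. Ins1 and Nkx6-1 ranked higher in all 3 beta libraries than in the others, and Mafa and Ucn3 had lower means in beta cells. At the 5′ end, Ins2 was called in beta 3 alone, and G6pc2 and Slc2a2 had no peak. With any annotated start, G6pc2 was called in 1 alpha, 3 beta, and 2 delta libraries. In the same order, Slc2a2 was called in 2, 3, and 2 libraries, and Ins2 in 0, 2, and 1. Of the 19 acinar, duct, endothelial, and immune markers, at most 2 of any list had a promoter peak in a given library. Of 6 mesenchymal markers, 4 and 3 had one in alpha 1 and alpha 2. In beta 1, beta 2, and beta 3 the counts were 2, 0, and 2, and in delta 1 and delta 2 they were 2 and 2.

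With every annotated start counted, 8 of the 10 disallowed genes carried a promoter peak in at least 2 beta libraries, and with the 5′ end alone 5 did. A peak within 1 kb of the annotated 5′ end of the gene was present in at least 2 replicates for 7 of the 10 genes in alpha cells, 5 in beta cells, and 5 in delta cells. Of all protein-coding genes, 56.8%, 56.1%, and 54.1% had such a peak in alpha, beta, and delta cells. The 5 genes in beta and delta cells were the same, Slc16a1, Hk2, Acot7, Oat, and Smad3, and alpha cells added Mgst1 and Igfbp4. With peaks of a −log10 q of at least 2 alone, the counts were 4, 4, and 5 (51.4%, 41.4%, and 48.3% of all genes), and with the 50000 strongest peaks of each list they were also 4, 4, and 5, so the larger count in alpha cells rested on weak peaks. Slc16a1, Hk2, Acot7, and Oat carried the peak in all 7 libraries, as did 41.5% of all genes, and Hk1 carried it in none, as did 17.3%. Hk1 and Ldha have further annotated starts downstream of the 5′ end, and counting a peak at any annotated transcript start gave 9, 8, and 7 genes in alpha, beta, and delta cells, against 62.2%, 63.6%, and 59.1% of all genes. By that measure, 5 genes were called in all 7 libraries, with Hk1 now among them (46.6% of all genes), and 3 of them, Slc16a1, Hk2, and Oat, kept a −log10 q of at least 2 in each library (34.3%). At that level, alpha 1 and alpha 2 called 7 and 8 of the 10 genes (58.4% and 60.6% of all genes). Beta 1, beta 2, and beta 3 called 5, 5, and 6 (41.7%, 43.3%, and 52.2%), and delta 1 and delta 2 called 7 and 8 (57.8% and 55.3%). Of the 8 in beta cells, Pdgfra rested on peaks at different starts, with a −log10 q of 1.1 in beta 1 and 1.71 in beta 2. Among beta libraries, Ldha reached 2 in beta 2 alone and Smad3 in beta 3 alone.

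To compare libraries of unequal length, the strongest promoter peak of each gene was ranked by −log10 p among the 21911 genes of the same library, and this rank is given as a promoter percentile, with 0 where no peak was called. Values below are listed for alpha 1, alpha 2, beta 1, beta 2, beta 3, delta 1, and delta 2 in that order. Beta cells were compared with the alpha and delta libraries together by a two-sided exact permutation test of the difference in mean percentile over the 35 ways to choose 3 of 7 libraries, for which the smallest p is 0.0286.

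**Figure D1:**
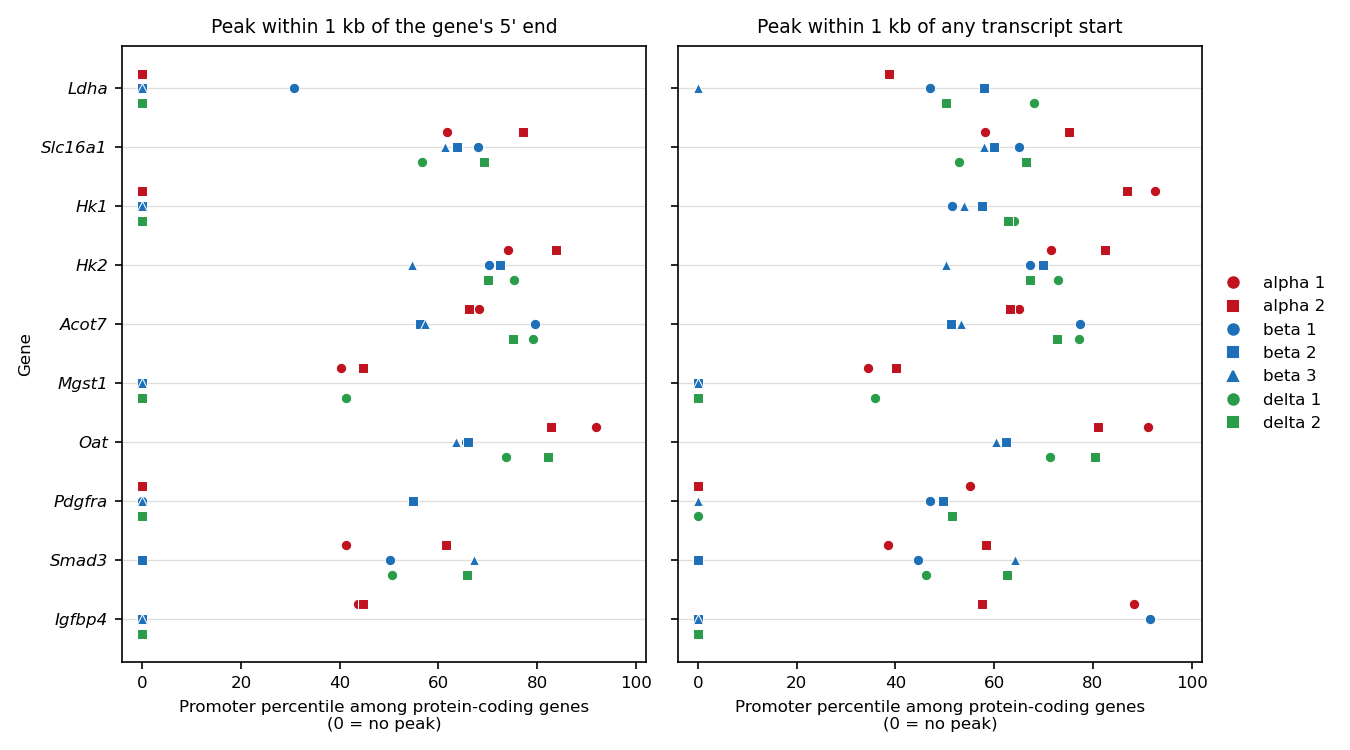
Promoter percentile of the strongest peak within 1 kb of the annotated 5′ end (left) and of any transcript start (right) for the 10 genes (rows) in the 7 libraries. Each point is a library, colored by cell type, and 0 stands for no peak. The 3 beta points of Oat, and with any start those of Hk1, lie to the left of the 4 others, and the beta points of Slc16a1 lie among them.

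Ldha encodes the A subunit of lactate dehydrogenase, which interconverts pyruvate and lactate. At its annotated 5′ end (chr7:46841475) the single peak was a weak one in beta 1, with a −log10 q of 0.0774. At the cluster of starts 4364 bases downstream, the −log10 q was 1.13, 1.64, 1.1, and 2.42 in alpha 1, alpha 2, beta 1, and beta 2. No peak was called there in beta 3, and the values were 15.1 and 3.78 in delta 1 and delta 2. The delta libraries were thus the highest, the alpha libraries did not reach 2, and the beta libraries spanned the range from absent to above both alpha libraries. The promoter percentiles with any start were 38.4, 38.7, 47.0, 58.0, 0, 68.0, and 50.2, and their mean was 35 in beta cells and 48.8 in the others (exact permutation p = 0.543). A second region 6.1 kb upstream was called in 6 libraries, with a −log10 q of 8.54 in beta 1, 1.82 in beta 2, 5.23 in beta 3, 1.13 and 3.15 in alpha 1 and alpha 2, and 3.21 in delta 2. All 3 beta libraries were among the 6, and in alpha 2 and beta 1 this region was stronger than the promoter peak of the same library.

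Slc16a1 encodes a plasma membrane carrier of lactate and pyruvate. Its single annotated start (chr3:104638668) carried a peak in every library, with −log10 q values of 7, 20.9, 2.99, 2.90, 4.15, 6.48, and 10.1. The promoter percentiles were 61.8, 77.2, 68.1, 63.7, 61.3, 56.6, and 69.3. The raw −log10 q was lowest in the 3 beta libraries, while their percentiles lay among those of the others, with means of 64.4 in beta cells and 66.2 in the rest (exact permutation p = 0.743). An intronic region 5.5 kb into the gene was called in 6 libraries, with a −log10 q of 2.70 and 6.92 in the alpha libraries, 2.99, 1.82, and 3.84 in the beta libraries, and 1.91 in delta 1. Slc16a1 had the densest locus of the 10, with 31.8 peaks at a −log10 q of at least 2 per 100 kb over the 7 lists, at the 79.2 percentile of all genes. Ldha had 18.5 per 100 kb, at the 53.4 percentile.

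Hk1 encodes a high-affinity hexokinase. No library had a peak at its annotated 5′ end. The start 39366 bases downstream (chr10:62340542), at the printed promoter, had −log10 q values of 36.7 and 34.8 in the alpha libraries, 12.3 and 8.39 in the delta libraries, and 2.29 and 3.16 in beta 2 and beta 3, with no peak in beta 1. The antisense gene Hk1os starts within the same region, and peaks have no strand. With any start, the promoter percentiles were 92.6, 86.9, 51.5, 57.6, 53.8, 64.0, and 62.8, where the value of beta 1 comes from another start of the gene. All 3 beta libraries were below all 4 others. The order within lane 6 (beta 1 below both alpha libraries) and lane 7 (beta 2 and beta 3 below both delta libraries) follows from this and is no separate check. The difference in means, 54.3 in beta cells against 76.6 (beta minus the others −22.3), gave an exact permutation p of 0.0857, which is above the smallest possible value because the assignments that join both alpha libraries with a delta library gave larger differences.

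In an intron of the same gene, 35.7 kb from the 5′ end and upstream of this start, lay the region printed above, chr10:62343989-62344443. Its −log10 q was 8.26 in beta 1, 4.25 in beta 2, and 3.24 in beta 3, with fold enrichments of 7.58, 5.33, and 4.60, and no alpha or delta library had a peak in it. In beta 1, the library with the weakest list, it was the strongest region of the Hk1 locus. It was the only region of the 10 loci in all 3 beta libraries and no other, out of 63 called in at least 2 libraries, and such regions made up 0.592% of all. It was chosen for description after its values were seen. A further region 17.9 kb from the 5′ end, near another start, was called in alpha 1, alpha 2, and beta 1 with a −log10 q of 31.6, 2.03, and 0.0774, and in none of the 4 libraries of lane 7.

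Hk2 encodes the hexokinase that prevails in muscle and fat. Its promoter (chr6:82774454, minus strand) was called in all 7 libraries, with a −log10 q of 13.4, 28.6, 3.46, 4.47, 2.52, 19.1, and 10.5. The promoter percentiles were 74.0, 83.9, 70.2, 72.5, 54.6, 75.2, and 70.1, with a mean of 65.7 in beta cells and 75.8 in the others (exact permutation p = 0.114). The groups overlapped, since beta 1 and beta 2 were above delta 2. An intronic region 20.6 kb into Hk2 was called in both alpha libraries and delta 1, with a −log10 q of 10, 18.9, and 1.91, and in no beta library. A region 34.0 kb into the gene had values of 1.13 and 5.48 in the alpha libraries, 1.91 and 6.06 in the delta libraries, and 1.43 in beta 3. Beta 2 had 3 peaks in the Hk2 locus and beta 3 had 3, against 4 to 8 in the alpha and delta libraries, and beta 1 had 13, of which 1 reached a −log10 q of 2.

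Oat encodes ornithine aminotransferase, a mitochondrial enzyme of amino acid metabolism, and had the clearest separation of cell types. The −log10 q of its promoter peak (5′ end at chr7:132576398, minus strand) was 33.5 and 26.9 in the alpha libraries, 17.5 and 19.7 in the delta libraries, and 2.44, 3.04, and 5.04 in the beta libraries. The fold enrichment over local background was 15.3 and 12.1, 11.1 and 12.5, and 3.61, 4.24, and 5.56 in the same order. In beta 2 the called peak lay 0.6 kb downstream of the 5′ end, at a second start, while in the other 6 libraries a peak overlapped the printed promoter. The promoter percentiles were 91.9, 82.7, 65.5, 65.9, 63.6, 73.6, and 82.2. All 3 beta libraries were below all 4 others, and so within each lane by necessity. Oat was the only member with all 3 beta libraries below the others at the 5′ end. Among all genes, 4.99% had all 3 beta libraries below the others at the 5′ end and 5.28% with any start, where Oat and Hk1 were the 2 members. The reverse order was found for no member, at the 5′ end (3.52% of all genes) or with any start (4.04%). The mean percentile of Oat was 65.0 in beta cells and 82.6 in the others, a difference of −17.6 with an exact permutation p of 0.0571 (adjusted p = 0.605 over all genes by Benjamini-Hochberg). A region 24.4 kb from the 5′ end, downstream of Oat and inside the annotated span of Fgfr2, was called in all 7 libraries, with a −log10 q of 4.56 and 5.22 in the alpha libraries, 4.14 and 12 in the delta libraries, and 1.1, 1.82, and 1.42 in the beta libraries. As at the Oat promoter, the 3 beta libraries were the lowest, and the smaller number of strong peaks in the beta lists moves with both. Its part in them was not tested.

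Acot7 encodes an acyl-CoA thioesterase that releases fatty acids from coenzyme A. Its promoter (chr4:152178134) was called in all 7 libraries, with a −log10 q of 9.95, 12.7, 6.13, 1.82, 2.97, 23.4, and 13.7. The promoter percentiles were 68.2, 66.1, 79.5, 56.3, 57.2, 79.1, and 75.1. Beta 1 ranked highest of all libraries and the other 2 beta libraries lowest, so the beta values spanned the whole range (means of 64.4 and 72.1, exact permutation p = 0.4). A region 9.8 kb upstream was called in all 7 libraries as well, but reached a −log10 q of 2 in beta 2 (3.04) and delta 1 (2.98) alone.

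Mgst1 encodes a microsomal glutathione transferase. Its promoter peaks were few and weak, with a −log10 q of 0.278, 2.03, and 0.951 in alpha 1, alpha 2, and delta 1, and no peak in the other 4 libraries. The promoter percentiles were 40.3, 44.7, and 41.3 in these 3 libraries and 0 in the 3 beta libraries and delta 2 (exact permutation p = 0.143). Regions on both sides of the gene were called in all 7 libraries. The region 9.6 kb upstream had −log10 q values of 6.03, 3.78, 2.12, 2.73, 1.43, 2.98, and 1.93. The region 33.3 kb from the 5′ end, downstream of the gene, had values of 28.7, 32.2, 1.1, 3.04, 2.97, 18.3, and 15.1, again lowest in the 3 beta libraries. In 6 of the 7 libraries this flanking region was the strongest peak of the locus, and in beta 1 it was the upstream region.

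Pdgfra encodes a receptor for platelet-derived growth factor and is a known marker of mesenchymal cells. Its 5′ end (chr5:75152292) carried a single peak in the 7 libraries, in beta 2, with a −log10 q of 1.71. No region of its locus reached a −log10 q of 2 in more than 1 library. The locus held 6.98 peaks at that level per 100 kb over all lists, at the 23.2 percentile of genes. Of the 6 other mesenchymal markers, 3 had a promoter peak in both alpha libraries, 1 in at least 2 beta libraries, and 1 in both delta libraries, Dcn had none, and 1 such peak in all reached a −log10 q of 2, in delta 2. The part of mesenchymal cells in the values of Pdgfra was not tested.

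Smad3 encodes a transcription factor that carries signals of transforming growth factor beta to the nucleus. The −log10 q of its promoter peak (chr9:63757994, minus strand) was 1.01, 9.86, 0.816, 6.35, 3.64, and 8.32 in alpha 1, alpha 2, beta 1, beta 3, delta 1, and delta 2. Beta 2 had no peak there, nor in any other part of the locus of 151228 bases, where the other libraries had between 3 and 21. The promoter percentiles were 41.3, 61.6, 50.1, 0, 67.2, 50.5, and 65.8, so the highest and the lowest were both of beta cells (exact permutation p = 0.543). Without beta 2, the mean of the beta libraries was above that of the others by 3.81, where it had been below by 15.7 with it.

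Igfbp4 encodes a secreted protein that binds insulin-like growth factors. Its 5′ end (chr11:99041244) was called in alpha 1 and alpha 2 only, with a −log10 q of 1.13 and 2.03, and the promoter percentiles were 43.6 and 44.7 in these and 0 in the other 5 libraries. The peak near another annotated start, 5.9 kb into the gene, was far stronger, with a −log10 q of 28.5 in alpha 1, 9.51 in alpha 2, and 15.5 in beta 1. The 3 peaks began at the same base, chr11:99047027, and ended within 1 base of each other, and none of the 4 libraries of lane 7 had a peak there. The 3 libraries are those of lane 6, of 2 cell types. Regions called in both alpha libraries and beta 1 only made up 1.89% of all regions of at least 2 libraries, and 2 of the 63 at the members were of this kind, in Hk1 and Igfbp4. In 9.26% of the 2527 such regions of the genome the 3 peaks shared their first base, against 1.47% of 1494 regions called in both delta libraries and beta 1 only. Within lane 7, the 3 peaks shared it in 0 of 327 regions called in both delta libraries and beta 2 only, and in 4 of 400 with beta 3 in its place. The larger share was thus found for the 3 libraries of lane 6 and not for those of lane 7, and its cause was not tested. A Top2a promoter region 16.9 kb upstream was called in 6 libraries and accounts for the strongest peak of the Igfbp4 locus in beta 2 and delta 1.

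**Figure D2:**
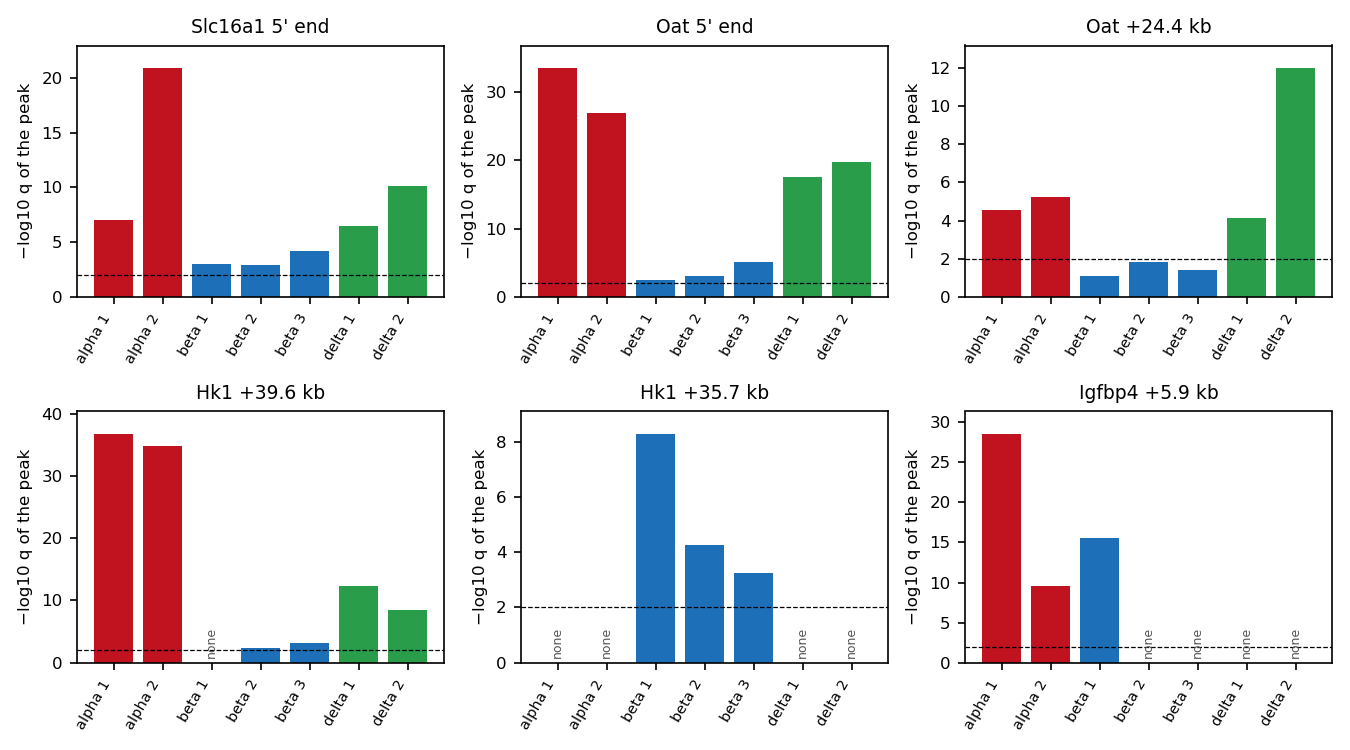
Bars give the −log10 q of the strongest peak in each of the 7 libraries, colored by cell type (alpha red, beta blue, delta green), at 2 promoters and 4 regions named by their distance from the 5′ end. The dashed line marks a −log10 q of 2, and "none" marks a library without a peak. The Oat promoter was lowest in the 3 beta libraries, the Hk1 region at 35.7 kb was called in these alone, and the Igfbp4 region in alpha 1, alpha 2, and beta 1.

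Over all 21911 genes, no promoter passed the test of beta against alpha and delta cells after Benjamini-Hochberg adjustment of the exact permutation p-values. The lowest adjusted values were 0.483 at the 5′ end and 0.438 with any start. As the smallest exact p is 0.0286, passing after adjustment would require most genes to reach it, so this outcome was nearly fixed. At an unadjusted p under 0.05 there were 1297 genes, or 5.92%, at the 5′ end and 1428, or 6.52%, with any start, and none of the 10 was among them. The mean percentile was lower in beta cells for 7 of the 10 genes at the 5′ end (41.2% of all genes) and for 9 with any start (43.1%), Pdgfra being the exception. The median difference of the 10 was −8.92 and −12.5, where that of all genes was 0. Of all genes, 17.3% had no peak at the 5′ end in any library and so a difference of 0. They are counted in the share of 41.2% and in the median. A weak peak also weighs much against none, since that of Mgst1 in alpha 1, with a −log10 q of 0.278, had a percentile of 40.3. Comparisons of 2 cell types could not reach 0.05, since the smallest exact p is 0.1 for alpha or delta against beta and 0.333 for alpha against delta. Mgst1, Igfbp4, and Oat reached 0.1 in alpha against beta at the 5′ end, and Oat in beta against delta. The share of all genes that reached 0.1 was not counted, so these values do not single the members out.

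No locus of the 10 passed a test of its number of peaks. The 10 loci together held 59 and 62 peaks in the alpha libraries, 152, 24, and 61 in the beta libraries, and 58 and 31 in the delta libraries. Per 100000 peaks of a list this was 50.2 ± 7.35 (SD, n = 2) in alpha, 38.1 ± 17.9 (SD, n = 3) in beta, and 38.8 ± 2.95 (SD, n = 2) in delta cells. Restricted to a −log10 q of at least 2, the loci held 27 and 27, 13, 13, and 21, and 20 and 18 peaks. Per 100000 peaks of a list at this level, this was 53.5 ± 2.25 (SD, n = 2) in alpha and 48.6 ± 7.43 (SD, n = 3) in beta cells. In delta cells it was 42.8 ± 0.472 (SD, n = 2), so beta lay between alpha and delta cells. Tested gene by gene over all genes, the density of peaks in the locus passed at an unadjusted exact permutation p under 0.05 for 3.73% of genes and for none of the 10, and no gene passed after adjustment (lowest adjusted p = 0.766). The largest difference among the 10 was that of Hk2, with 2.90 peaks per 100000 in beta cells and 5.20 in the others (exact permutation p = 0.0857).

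**Figure D3:**
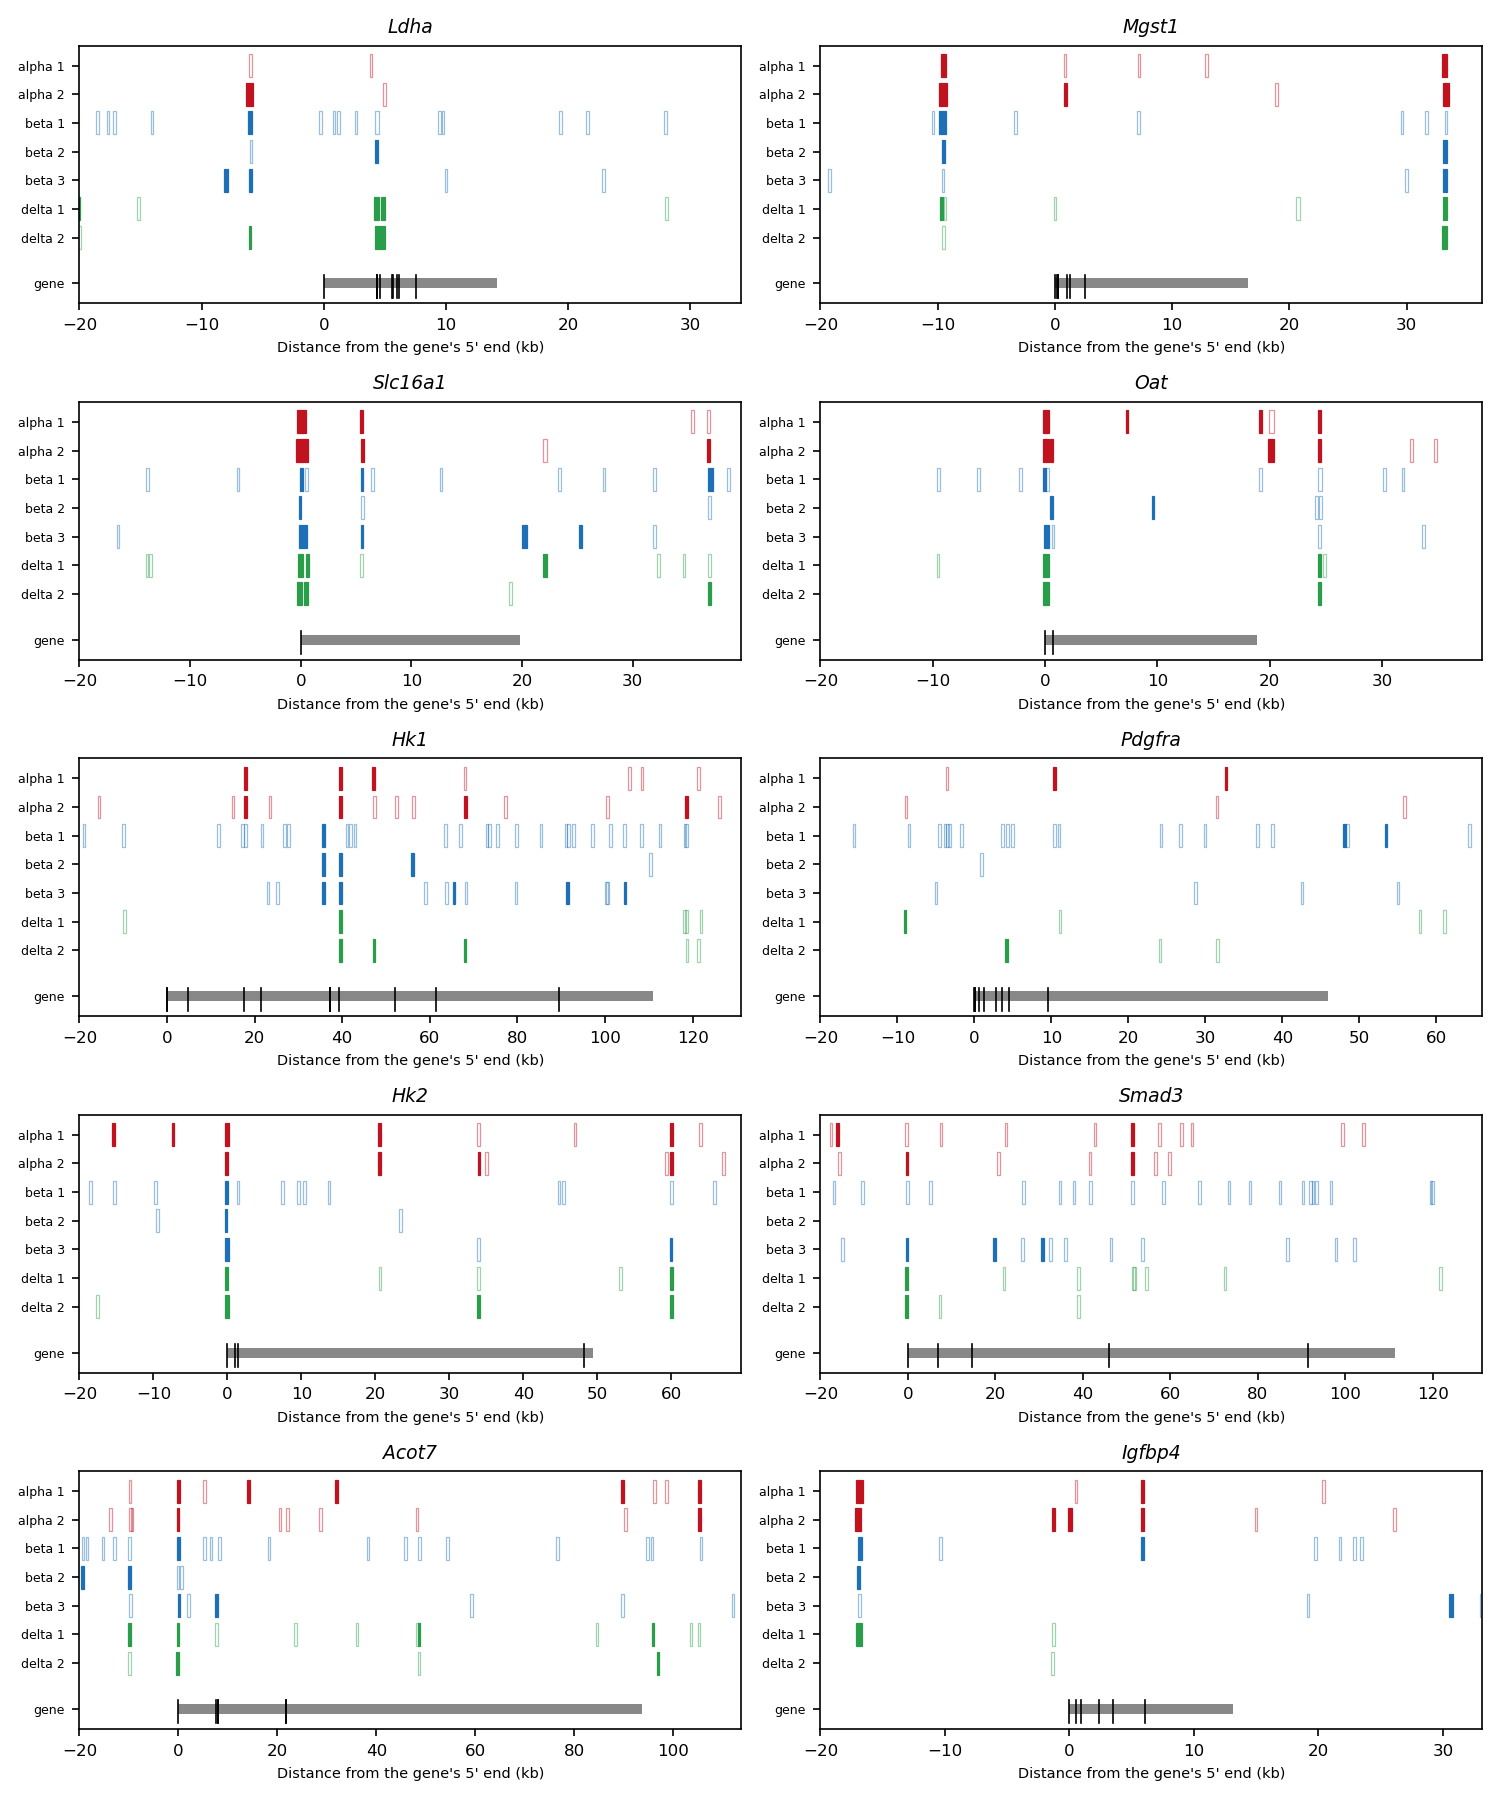
Peaks at the 10 loci by distance from the annotated 5′ end of each gene in kb (x axis, in the direction of transcription), with a row for each of the 7 libraries. Filled boxes have a −log10 q of at least 2 and open boxes a lower one, narrow peaks are widened to stay visible, and the gray bar is the gene with its transcript starts as ticks. Beta 1 has the most open boxes, and beta 2 has no box at Smad3.

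Merging peaks that overlapped across libraries gave 287 regions at the 10 loci, of which 107 were called in beta 1 alone and 63 in at least 2 libraries. Genome-wide there were 834695 regions, 415555 of them in beta 1 alone and 133698 (16.0%) in at least 2 libraries. Of the 63, 23 lay in introns, and 15 lay at a start of their own gene. No share of all regions is given for these kinds, so they are descriptive only. By cell type, 25 of the 63 were in both alpha libraries (34.0% of all 133698 regions of at least 2 libraries), 23 in at least 2 beta libraries (42.1%), and 19 in both delta libraries (33.6%). These are 39.7%, 36.5%, and 30.2% of the 63, close to the shares of all regions. By library, the share of the 63 was above that of all regions in alpha 1, alpha 2, beta 3, and delta 2 and below it in the other 3, so beta and delta libraries lay on both sides. Called in all 7 libraries were 7 regions (13.3% of all), namely the promoters of Slc16a1, Hk2, and Acot7, the upstream region of Acot7, the Oat region at 24.4 kb, and both flanking regions of Mgst1.

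No region was called in all 4 alpha and delta libraries and in no beta library, a pattern of 1.43% of all regions. Of the 63, 5 were in both alpha and no beta library (5.41% of all) and 3 were in both delta and no beta library (4.85%). With peaks of a −log10 q of at least 2 alone, 26 regions remained in at least 2 libraries, and 8 of them were in no beta library (29.9% of all such regions). In that set 1 region was called in all 4 alpha and delta libraries and in no beta library, the Oat region at 24.4 kb (5.24%), and 1 was called in at least 2 beta libraries and in no other, the Hk1 region at 35.7 kb (2.60%). Both shares are of 1 region in 26. Weaker beta peaks were present at the Oat region, as given above, whereas at the Hk1 region no weaker alpha or delta peak was listed.

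**Figure D4:**
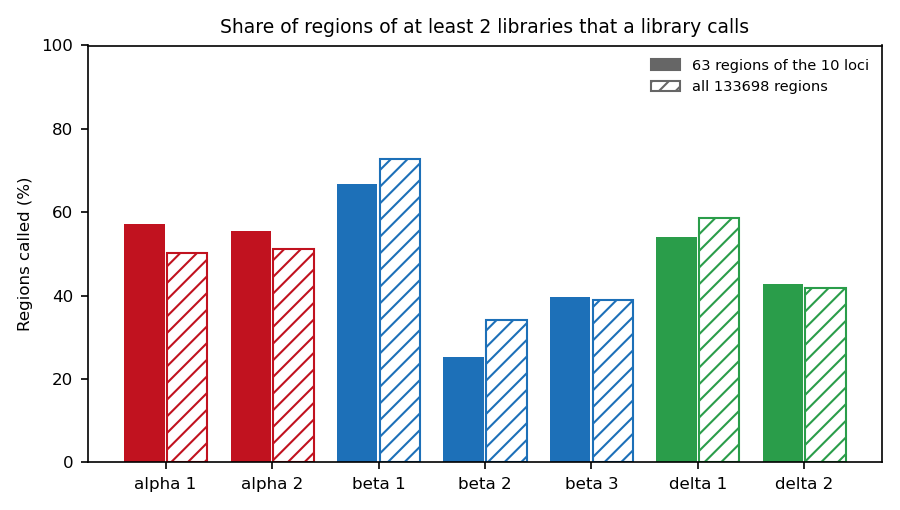
Share of regions of at least 2 libraries that each library calls, for the 63 regions of the 10 loci (filled bars) and all 133698 regions (hatched bars), in percent and colored by cell type. The filled bars of the alpha libraries stand above the hatched ones, in beta 1, beta 2, and delta 1 they stand below, and in beta 3 and delta 2 the pairs are nearly level.

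Other genes of the same groups were counted at the 5′ end in the same way. Of all protein-coding genes, 56.8%, 56.1%, and 54.1% had such a peak in at least 2 alpha, beta, and delta replicates. It was present in all 7 libraries for 41.5% and in none for 17.3%, and 5.92% passed at an unadjusted exact permutation p under 0.05. Of 12 other disallowed genes, 8 had a promoter peak in at least 2 alpha replicates, 9 in beta, and 9 in delta cells, and 6 in all 7 libraries. Fcgrt, the neonatal Fc receptor, had none. None of the 12 passed at an unadjusted exact permutation p under 0.05, and their median difference between beta and the other cells was −2.71. Parp3, a poly(ADP-ribose) polymerase, had all 3 beta libraries below the others, with percentiles of 98.5, 98.1, 79.0, 78.3, 80.9, 92.4, and 87.4 (exact permutation p = 0.0571). Of 21 genes of glucose and pyruvate metabolism, 14, 16, and 15 had a promoter peak in alpha, beta, and delta cells. G6pc2, Slc2a2, and Hk3 had no peak at the 5′ end, and in this list Mdh1 alone passed at an unadjusted p under 0.05 (exact permutation p = 0.0286), lower in beta cells by a difference of −0.603 percentile points. Slc16a7, a second carrier of pyruvate, had percentiles of 90.1, 88.6, 56.1, 67.3, 63.8, 72.9, and 76.0, so that all 3 beta libraries were below the others (exact permutation p = 0.0571). Of 15 relatives of the remaining members, 11, 10, and 10 had a promoter peak in alpha, beta, and delta cells. Igfbp7, a secreted relative of Igfbp4, had all 3 beta libraries above the others, with percentiles of 66.2, 76.3, 85.9, 83.1, 86.2, 78.9, and 73.9 (exact permutation p = 0.0571). Igfbp5 had no peak, Pdgfrb was called in all 4 alpha and delta libraries and in beta 1, and Mgst3 passed at the unadjusted level, with a difference of −9.00 (exact permutation p = 0.0286). Over these 3 lists, all 3 beta libraries were below the others for Parp3, Slc16a7, Mdh1, and Mgst3, an order found in 4.99% of all genes. They were above the others for Igfbp7 and Gpi1, an order found in 3.52% of all genes. Gpi1 had an exact permutation p of 0.229. Parp3, Mdh1, Slc16a7, Mgst3, Igfbp7, and Gpi1 were named after their values were seen, and none of them passed after adjustment over the 21911 genes.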

How the data were processed

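Libraries were grouped by their labels into alpha (n = 2), beta (n = 3), and delta cells (n = 2), and treated as separate biological replicates. The paper compares cell types taken from shared animals, so a beta pool may share mice with an alpha or delta pool. The authors used Trimmomatic for trimming, Bowtie2 with an index of mm10 that lacked the mitochondrial genome, Picard for duplicates, a filter on blacklisted regions, and MACS2 for peaks, which the lists hold per library (versions are not given in the sources used here). The deposited lists hold, for each peak, the authors' MACS2 score, fold enrichment over local background, −log10 p, −log10 q, and summit position. The lowest −log10 p was 2.01 in every list. No reads are in the lists, so DiffBind was not repeated, and an absent peak gives no limit of detection.

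Rows that repeated an interval were counted once. Genes are those of GENCODE vM21 on mm10, and no peak lay beyond a chromosome of GRCm38.p6. Sequences and motifs of chromosome 18 were left out. Peaks within 1 kb of a start were assigned to the gene (alternative 3 kb), ranked by −log10 p, and merged across lists at an overlap of 1 bp (bedtools 2.31.1). Python 3.11.15, numpy 2.4.6, pandas 2.3.3, and pysam 0.24.0 were used. The exact test counts assignments with an absolute difference at least as large and was tested on simulated data. A p under 0.05 counts as passing, and p-values were adjusted by the method of Benjamini and Hochberg over all genes. Mice were pooled, so p-values measure the spread between pools. The 10 genes and the gene lists were chosen with earlier results of these data known. All 10 were named, and of the other lists those called in all 4 alpha and delta libraries and at most 1 beta library, in all 3 beta and at most 1 other library, or in none. Alternatives were peaks of −log10 q 2 or more, the 50000 strongest peaks of each list, other windows, flanks, and starts, ranking by fold, permutation within lane or replicate number, and leaving out each library.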

Additional observations from a re-analysis of the deposited data

How the results depend on the processing

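No alternative gave a gene that passed after adjustment in the promoter or the locus test, but these tests could hardly give one. Leaving out a library, blocks, and permutation within lane had a smallest exact p of 0.0556 or more, so no gene could pass. In the other settings most genes would have to reach the smallest exact p of 0.0286. With peaks of −log10 q 2 or more, and likewise with the 50000 strongest peaks, the members with a promoter peak in both alpha libraries fell from 7 to 4, and with any transcript start those of beta cells rose from 5 to 8. Regions of at least 2 libraries numbered 26 and 27 under the first 2 settings instead of 63, as fewer peaks enter, and those of all 4 alpha and delta libraries and no beta library numbered 1 with peaks of −log10 q 2 or more. Leaving out a library in turn gave 0 to 2 of the latter and 1 to 5 of the regions in all beta libraries alone (5 without beta 2, 2 without beta 3). Counts over 2 replicates cannot be had without a member of an alpha or delta pair.

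The promoter difference of Ldha changed from 10.2 to −13.8 with any start, and leaving out libraries gave −5.02 to 1.83 for Slc16a1, above 0 without alpha 2, and −29.8 to 3.81 for Smad3, above 0 without beta 2. Igfbp4 with a window of 3 kb (−40.1), Oat ranked by fold enrichment (−20.6), and the locus density of Hk2 with a flank of 5 kb (−1.06) each reached the smallest exact permutation p of 0.0286 (unadjusted). In the same order of settings, 1507, 1482, and 650 of the 21911 genes had an unadjusted exact permutation p under 0.05. The small differences in locus density changed sign for Slc16a1 (2.52), Mgst1 (0.0907), and Igfbp4 (0.959) with peaks of −log10 q 2 or more, for Slc16a1 (1.83) and Pdgfra (−0.667) with 50000 peaks, and for Ldha (−0.102) by covered bases. Leaving out libraries gave densities from −1.68 to 2.47 for Hk1, −1.52 to 0.221 for Igfbp4, −0.063 to 0.821 for Ldha, −0.792 to 0.535 for Oat, −0.39 to 1.09 for Pdgfra, −1.59 to 0.136 for Slc16a1, and −4.08 to 1.69 for Smad3. The causes were not tested.

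The labels give replicate numbers but no pairing. With the replicate number as a block, 0 genes passed (lowest adjusted p = 0.784 for the promoters and 0.683 for the loci), the smallest exact p was 0.111, and no call changed. Within lanes, Oat had an exact permutation p of 0.0556. Reads per library were not used, so an absent peak in a weak list such as beta 1 or beta 2 says little. The paper lists fewer unique mapped reads for the beta libraries it kept than for the alpha libraries, with a delta library within the beta range. The part of read depth in the low beta values was not tested.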
